A study of Mus musculus with 8 samples.

Results

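Platr20, 9230009I02Rik and Zfp2 are neighbouring genes on mouse chromosome 11 whose reads came mainly from the paternal allele in blastocysts. They were chosen by their maternal and paternal read counts in these embryos, as a group of paternally read neighbours, and were taken from the count table by symbol. They make up 3 of its 22810 genes and 3 of the 12564 autosomal genes that reached 10 reads in 1 or more allele libraries, and all 3 could be tested. RNA was measured in 8 single blastocysts at embryonic day 3.5 (E3.5), which came from natural matings and were lysed without in vitro culture. The 3 forward embryos had a C57BL/6 (B6) mother and a Mus musculus castaneus (cast) father, and the 5 reverse embryos had a cast mother and a B6 father. All embryos were therefore B6/cast hybrids without a transgene or treatment, and cross and paternal strain changed together. The methods state that further samples had been removed beforehand, and the remaining reverse embryos carry the numbers 1, 2, 3, 5 and 7. The libraries held RNA of whole embryos, in which fewer cells of a type and less RNA per cell cannot be told apart.

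Imprinted genes are expressed mainly from the allele of 1 parent, and they often lie in groups along a chromosome. Their allelic state is set by marks that the gametes transmit, which include DNA methylation and, for a class found in early embryos and extraembryonic tissue, trimethylation of histone H3 lysine 27 inherited from the oocyte. In reciprocal crosses a parental difference changes strain between the crosses, whereas a strain difference changes parent. Platr20 belongs to the pluripotency associated transcripts, long noncoding RNAs named for their expression in embryonic stem cells. Zfp2 encodes a C2H2 zinc finger protein, and 9230009I02Rik is annotated as a long intergenic noncoding RNA.

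In mm10 and GENCODE release M21, Zfp2 spans chr11:50898712-50916165 on the minus strand, 9230009I02Rik chr11:51085087-51091833 on the plus strand and Platr20 chr11:51189833-51220418 on the minus strand. The gap between Zfp2 and 9230009I02Rik is 168.921 kb, and the gap between 9230009I02Rik and Platr20 is 97.999 kb. From the lowest coordinate of Zfp2 to the highest of Platr20 the interval measures 321.707 kb, and no other annotated gene overlaps any of the 3. Platr20 starts head to head with Gm12569, a protein-coding gene on the plus strand that begins 0.054 kb beyond it.

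The start regions of Platr20 and Zfp2 are shown because both were read from the paternal allele and Platr20 shares its start region with another paternally read gene. RefSeq (GRCm38.p6) holds 2 of the 3 members, and each sequence runs 5′ to 3′ from 250 bases before to 50 bases after the start, with motif matches in capitals. Platr20 lies at chr11:51220369-51220668 and Zfp2 at chr11:50916127-50916426, both on the minus strand.
Platr20: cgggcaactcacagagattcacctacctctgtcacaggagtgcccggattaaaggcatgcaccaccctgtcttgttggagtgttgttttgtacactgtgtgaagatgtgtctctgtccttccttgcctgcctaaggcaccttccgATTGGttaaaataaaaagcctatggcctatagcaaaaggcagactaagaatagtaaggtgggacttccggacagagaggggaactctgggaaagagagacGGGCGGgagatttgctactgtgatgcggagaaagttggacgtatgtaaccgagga
Zfp2: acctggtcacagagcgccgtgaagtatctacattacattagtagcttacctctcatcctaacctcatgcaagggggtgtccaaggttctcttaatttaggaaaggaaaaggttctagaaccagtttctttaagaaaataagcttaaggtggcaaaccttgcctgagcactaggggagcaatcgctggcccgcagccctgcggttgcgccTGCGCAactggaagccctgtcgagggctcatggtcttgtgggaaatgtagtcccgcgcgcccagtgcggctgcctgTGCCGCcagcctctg

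In these windows Platr20 had 9 and Zfp2 13 CpG dinucleotides, against a median of 7 over 32851 RefSeq promoters. Both strands were searched for GGGCGG (Sp1), TGCGCA (the core of the Nrf1 motif), TGCCGC (bound by the zinc finger protein Zfp57), CCAAT and TATAAA. Counted from 1 at the 5′ end, Platr20 had a CCAAT match on the opposite strand at 146 and a GGGCGG match at 246. Zfp2 had TGCGCA at 210 and TGCCGC at 286. No matches overlapped. Of all promoters, 35.7% held GGGCGG, 37.4% CCAAT, 7.76% TGCGCA, 11.6% TGCCGC and 13.6% TATAAA. The windows of Platr20 and Gm12569 share 252 bases on opposite strands, since their RefSeq starts are 153 bases apart. For 9230009I02Rik the first 100 bases of the spliced GENCODE transcript, which has 1148 bases in 3 exons, are given to identify the annotated RNA. Whether the counting used this annotation is not known here.
9230009I02Rik: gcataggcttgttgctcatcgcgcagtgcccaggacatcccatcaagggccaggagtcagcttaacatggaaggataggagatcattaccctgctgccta

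Each embryo had between 1060063 and 1632695 reads that covered a SNP and could be assigned to a strain, of which 57.4% to 58.3% were B6. Epiblast markers (Pou5f1, Nanog, Sox2, Klf2, Fgf4) summed to 115 to 143 RPM (reads per 1000000 of an embryo) in forward and 129 to 208 in reverse embryos. The trophectoderm list (Cdx2, Gata3, Krt8, Krt18, Tead4, Eomes, Elf5) reached 4181 to 5240 in forward and 1232 to 4111 in reverse embryos, without overlap. The primitive endoderm list (Gata6, Gata4, Sox17, Pdgfra, Sox7) also did not overlap, with 309 to 332 in forward and 173 to 278 in reverse embryos. How many genes or other lists separate the crosses in this way was not counted, and the gap of the trophectoderm list was small (4111 against 4181). Every gene of these 3 lists had reads. Embryos of 1 cross are separate embryos, but no label states the number of litters. The p-values of the comparison between crosses measure only the spread between these embryos. The main strain and parental fits entered both alleles of an embryo as separate libraries. Their p-values measure only the spread between these allele libraries.

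The split between parental alleles chose the members and is described here without a test. Platr20 had 1, 3 and 1 maternal reads beside 7, 17 and 18 paternal reads in forward embryos 1, 2 and 3. Its paternal counts were 22, 59, 28, 23 and 32 in reverse embryos 1, 2, 3, 5 and 7, without any maternal read. All 8 embryos thus read Platr20 mainly from the father, whichever strain the father was. Its paternal share averaged 89.1% ± 5.06 (SD, n = 3) in forward embryos, and in reverse embryos the 0 maternal among 164 reads allow a maternal share of up to 1.83%. Such limits and the intervals below cover counting error only.

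9230009I02Rik had 47, 48 and 95 paternal reads in forward embryos 1, 2 and 3, and its single maternal read was in forward embryo 2. In reverse embryos 1, 2 and 3 it had 3, 1 and 16 paternal reads, and in embryos 5 and 7 it had no read of either allele. The forward embryos were all high and the reverse embryos low, so only 6 of 8 embryos had any read, and 16 of the 20 reverse reads came from embryo 3. The single read of reverse embryo 2 cannot show a split. For the 3 reads of reverse embryo 1 the exact 95% interval of the paternal share was 29.2% to 100%. The paternal share was 99.3% ± 1.18 (SD, n = 3) in forward embryos. In reverse embryos the count of 0 maternal among 20 reads allows a maternal share of up to 15%.

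Zfp2 was the member with the fewest reads. It had 3, 2 and 0 maternal beside 12, 4 and 3 paternal reads in forward embryos 1, 2 and 3, a mean paternal share of 82.2% ± 16.8 (SD, n = 3). In reverse embryos 1, 2, 3, 5 and 7 all reads were paternal, with counts of 14, 13, 12, 3 and 18. Paternal reads outnumbered maternal reads in all 8 embryos, but the share in forward embryo 2 was 66.7% with an exact (Clopper-Pearson) 95% interval from 22.3% to 95.7%. The 0 maternal among 60 reverse reads allow a maternal share of up to 5.00%, by the approximate limit used for Platr20.

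**Figure D1:**
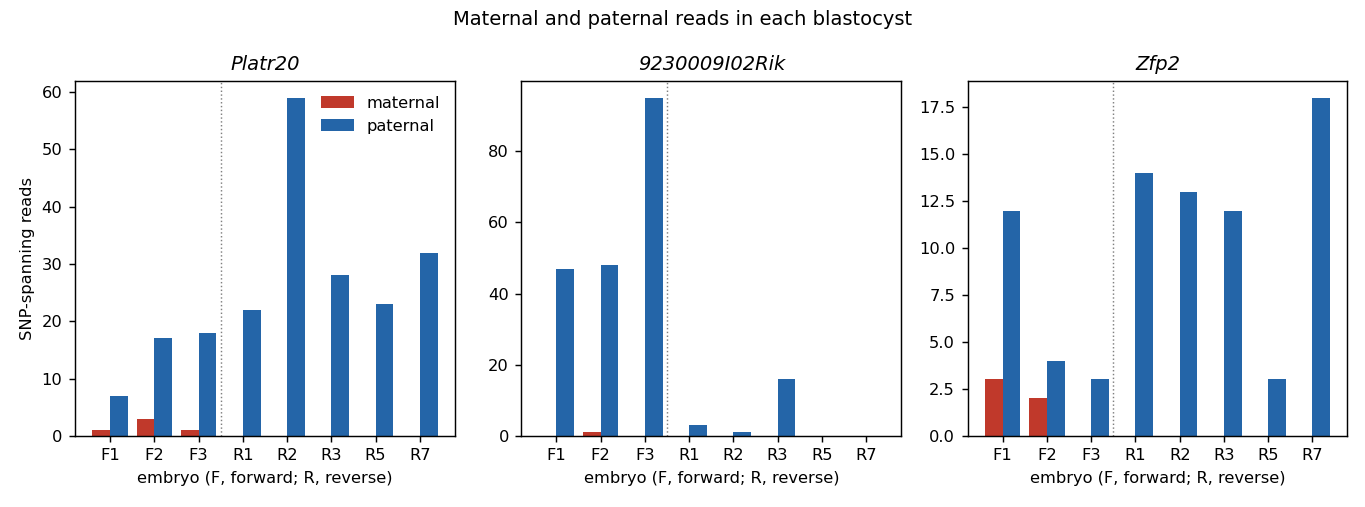
SNP-spanning reads (vertical axis, linear) of the maternal (red) and paternal (blue) allele for each member in the 3 forward (F) and 5 reverse (R) embryos, with a separate scale for each gene. Paternal bars exceed maternal bars wherever a gene had reads, every maternal read lies in a forward embryo, and 9230009I02Rik is high in forward and low or at 0 in reverse embryos.

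Over all embryos, Platr20 had 5 maternal and 206 paternal reads, 9230009I02Rik 1 and 210, and Zfp2 5 and 79. All of these maternal reads were in forward embryos, where the maternal allele is B6, and the reverse embryos had none from any of the 3 genes. The leukocyte list (Ptprc, Cd74, Lyz2, Tyrobp, Cd52; all 5 genes had reads) was also higher in forward embryos, at 34.7 to 682 RPM against 1.33 to 6.64 in reverse embryos. Its maternal reads numbered 1114, 39 and 42 in forward embryos 1, 2 and 3. The oocyte list (Gdf9, Bmp15, Zp3, Zp2, Oosp1) overlapped between crosses, at 3.91 to 19.0 against 9.30 to 17.3 RPM. The uterine and oviduct epithelium list (Ltf, Ovgp1, Muc1, Epcam) was higher in reverse embryos, at 822 to 1170 against 620 to 808, and holds Epcam, which the embryo itself expresses. How many genes or other lists differ between crosses in this way was not counted, and the part of these lists in the maternal reads was not tested.

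The strain term of the model then addressed whether the cast or the B6 allele was read more. Parent of origin was held as a second term. Each allele library was scaled to its own size, so the coefficient is relative to the share of B6 among all reads (57.4% to 58.3%). The coefficient of 9230009I02Rik passed the test towards cast, a direction that for this paternally read gene cannot be told apart from higher reads in forward embryos, while Platr20 and Zfp2 had estimates towards B6 that did not pass. The test was edgeR's quasi-likelihood test with Benjamini-Hochberg adjustment, called at an adjusted p of at most 0.1. It called the strain coefficient of 1 of the 3 members, while 15.4% of all genes tested were called and 4.47% were higher on the cast allele. The fit held no term for embryo, so both alleles of an embryo entered as separate libraries.

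On the paternal allele, 9230009I02Rik measured 112 ± 56.6 CPM (counts per 1000000 reads of a library, with TMM factors; SD, n = 3) in forward embryos, where it is cast, and 5.71 ± 10.4 (n = 5) in reverse embryos, where it is B6. The strain coefficient was a log2 difference of 3.80 (SE 0.89, 95% interval 1.95 to 5.65; 13.9-fold) towards cast, with an adjusted p of 0.00563 by edgeR. Only the paternal allele gave reads in number, so a difference between cast and B6 alleles and a difference between forward and reverse embryos cannot be told apart for this gene. With a term for each embryo, which compares the alleles within an embryo, the coefficient was 1.30 (SE 3.67) and the adjusted p 0.874, and that comparison had 1 maternal read to rest on. Reverse embryo 3 and forward embryo 3 had the most weight among embryos: the coefficient was 5.48 without the former and 3.07 without the latter, and both stayed called. DESeq2 gave 2.90 (adjusted p = 0.0354).

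Platr20 was read at 25.5 ± 13.5 CPM (SD, n = 3) from cast and 44.0 ± 17.6 CPM (n = 5) from B6 paternal alleles. The forward range was 9.88 to 33.4 CPM and the reverse range 23.8 to 67.1 CPM, so the crosses overlapped. Its strain coefficient was a log2 difference of -1.26 (SE 0.56, 95% interval -2.42 to -0.11), with an adjusted p of 0.165 by edgeR, and it was not called. With a term for each embryo it was -2.28 (adjusted p = 0.0352 by edgeR), and with 1 library size for both alleles of an embryo it was -1.56 (adjusted p = 0.0629), which both passed the threshold. The comparison within embryos had 5 maternal reads to rest on, all in forward embryos.

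Zfp2 had 10.1 ± 6.03 CPM (SD, n = 3) on cast and 16.7 ± 9.73 CPM (n = 5) on B6 paternal alleles. The coefficient was -1.39 on the log2 scale (SE 0.74, 95% interval -2.93 to 0.14), with an adjusted p of 0.270 by edgeR, and none of 16 alternatives called it. The 3 genes share their libraries and neighbourhood, and whether their coefficients differ from each other was not tested.

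The total level, with the reads of both alleles summed, was compared between crosses. It is made of the same reads whose split between parents chose the members, so it is not independent of that choice. For 9230009I02Rik, 210 of the 211 reads were paternal. 9230009I02Rik measured 28.7, 44.1 and 78.3 CPM in the forward embryos 1, 2 and 3. The reverse embryos 1, 2, 3, 5 and 7 had 1.81, 0.637, 13.1, 0 and 0 CPM. The crosses did not overlap for this gene, but the share of all genes tested that separate in this way was not counted. For the embryos at 0, counts of 3 reads would correspond to 2.25 and 2.83 RPM in embryos 5 and 7. The log2 difference, reverse minus forward, was -4.01 (SE 0.90, 95% interval -5.93 to -2.08), with an adjusted p of 0.207 by edgeR's quasi-likelihood test. Of all genes tested 0.103% were called between crosses and 0.0637% were higher in forward embryos, and 0 of the 3 members were called. The unadjusted p was 5.45e-04 by edgeR, 930 of the 12564 genes (7.4%) had an unadjusted p of at most 0.05, and DESeq2 called the gene with an adjusted p of 0.0233. In an exact two-sided permutation test over embryos on log2(CPM + 1), p was 0.0357, the smallest value that 3 against 5 embryos can give. Without reverse embryo 3 the difference was -6.00 (adjusted p = 0.00790 by edgeR), and without reverse embryo 1 it was -3.85 (adjusted p = 0.0316). The part of the trophectoderm, primitive endoderm and leukocyte lists, which were also higher in forward embryos, was not tested.

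Platr20 ranged from 4.88 to 18.0 CPM in forward and from 13.3 to 37.6 CPM in reverse embryos, with overlap. The log2 difference, reverse minus forward, was 0.94 (95% interval -0.22 to 2.11; adjusted p = 0.709 by edgeR). Zfp2 ranged from 2.47 to 9.16 CPM in forward and from 2.28 to 17.6 CPM in reverse embryos, which also overlapped. The difference was 0.67 (95% interval -0.99 to 2.34; adjusted p = 0.875 by edgeR). For both genes the interval included 0 as well as a difference of more than 1 log2 unit towards reverse embryos.

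**Figure D2:**
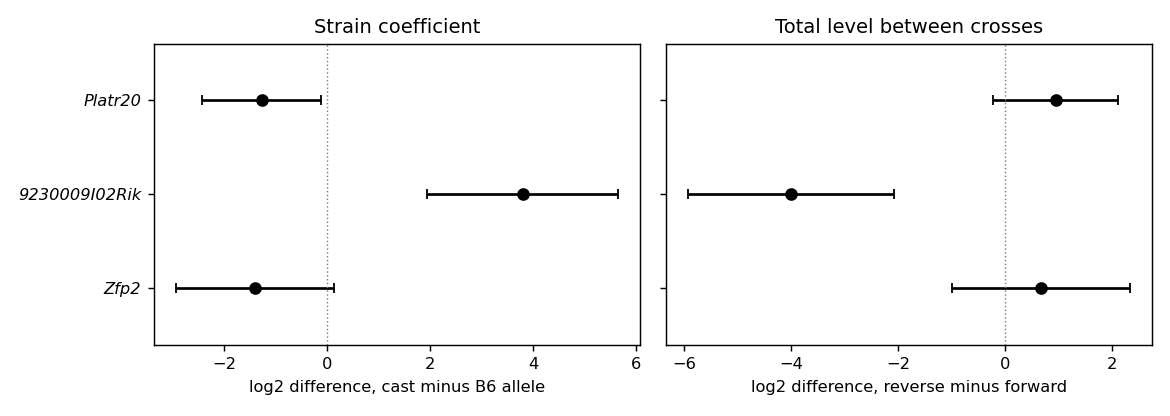
Log2 differences of the members from edgeR with 95% intervals (horizontal bars). On the left is the strain coefficient (cast minus B6, 16 allele libraries) and on the right the total level (reverse minus forward, 8 embryos). 9230009I02Rik lies at 3.80 and -4.01 with intervals away from 0, Platr20 and Zfp2 lie on the other side of 0 from it in both panels, and their intervals for the total level include 0.

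Around the members, 21 other genes of the table overlapped the interval extended by 500 kb on either side, and 13 of them could be tested. Gm12569 and Zfp354a, 2 of the 13, had a parental difference and were higher on the paternal allele, while 1.42% of all genes tested were called and 1.11% were higher paternally. The median log2 difference, paternal minus maternal, was 0.14 over the 13 neighbours and -0.01 over all genes tested. The window was placed around genes chosen for paternal reads. In all, 6 of the 13 had an unadjusted p of at most 0.05, as did 7.31% of all genes tested. These 6 include Col23a1 and Adamts2, which were called for strain (below). In forward embryos Col23a1 had 22 maternal and 2 paternal reads, and Adamts2 had 4 and 2.

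Gm12569, which starts beside Platr20, had 0, 1 and 1 maternal beside 45, 15 and 28 paternal reads in forward embryos 1, 2 and 3. In reverse embryos 1, 2, 3, 5 and 7 it had 65, 40, 42, 16 and 30 paternal reads and 0, 0, 0, 1 and 1 maternal reads. Every embryo was thus read at 93.8% or more from the father. The log2 difference was 5.64 (SE 0.58, adjusted p = 1.56e-06 by edgeR), and all 16 alternatives called it. Its strain coefficient was -0.11 (SE 0.50, adjusted p = 0.944 by edgeR). Platr20 and Gm12569 lie on opposite strands without overlap in the annotation, but it is not stated whether the counting used strand, so reads beyond the annotated ends cannot be assigned to either with certainty.

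Zfp354a encodes a KRAB zinc finger protein and ends 12.287 kb before 9230009I02Rik. Its paternal reads numbered 4, 5 and 0 in forward embryos 1, 2 and 3. Reverse embryos 1, 2, 3, 5 and 7 had 27, 3, 20, 5 and 2 paternal reads. Its only maternal reads were 2 in forward embryo 3, so 7 of 8 embryos were paternal and 1 was maternal. The log2 difference was 4.06 (SE 1.02, adjusted p = 0.0518 by edgeR). The call was lost when forward embryo 1 or 2 or reverse embryo 1, 3 or 5 was left out, and in the fit that pairs the alleles of an embryo (adjusted p = 0.158). Zfp454, 11.06 kb from Zfp2, had 46 paternal reads and no maternal read, but 3 embryos had no read and it was not called (log2 difference 5.35, SE 1.43, adjusted p = 0.118 by edgeR).

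Further genes between Zfp354c and Clk4 were looked at after their values had been seen. Of the 9 neighbours of the members in this stretch, all had more paternal than maternal reads over all embryos, and 6 had so in both crosses. However, 5 did not reach 10 reads in any allele library and were not tested. Outside the stretch, Rmnd5b and D930048N14Rik also had more paternal reads in both crosses, and the share of all genes that do was not counted. Zfp354b had 4 forward and 5 reverse reads, all paternal. Zfp354c had 5 maternal and 5 paternal forward reads and 18 paternal reverse reads. Clk4, a kinase of splicing factors, was read from both parents, with a mean paternal share of 55.1% ± 5.79 (SD, n = 3) in forward and 85.2% ± 14.2 (n = 5) in reverse embryos. Its parental difference was not called (1.41, SE 0.56, adjusted p = 0.432 by edgeR), and BC049762 overlaps it on the other strand.

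For strain, 2 of the 13 neighbours were called, where 15.4% of all genes tested were, and both were higher on the B6 allele, as were 10.9% of all genes. Col23a1, which encodes a transmembrane collagen, had 10, 7 and 5 maternal (B6) reads beside 0, 0 and 2 paternal reads in forward embryos 1, 2 and 3. In reverse embryos 1, 2, 3, 5 and 7 it had 44, 15, 10, 7 and 16 paternal (B6) reads and no maternal read. The parent with the reads thus changed between crosses and the strain did not, and the strain coefficient was -4.65 (SE 0.80, adjusted p = 2.41e-04 by edgeR; called in all 16 alternatives). Adamts2, a procollagen-processing protease, had 6 reads in forward embryo 1, none in forward embryos 2 and 3, and 33 reverse reads, all paternal. Its strain coefficient was -3.00 (SE 1.07, adjusted p = 0.0770 by edgeR), and 5 of 14 alternatives called it. The call was lost when any forward embryo, or reverse embryo 3, 5 or 7, was left out, with DESeq2, with legacy = FALSE and in the fit that pairs the alleles of an embryo (adjusted p = 0.266 by edgeR). Beyond Col23a1, the tested genes Phykpl, Hnrnpab, Nhp2, Rmnd5b, 0610009B22Rik and Sec24a had pooled paternal shares between 39.9% and 58.3% in both crosses.

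**Figure D3:**
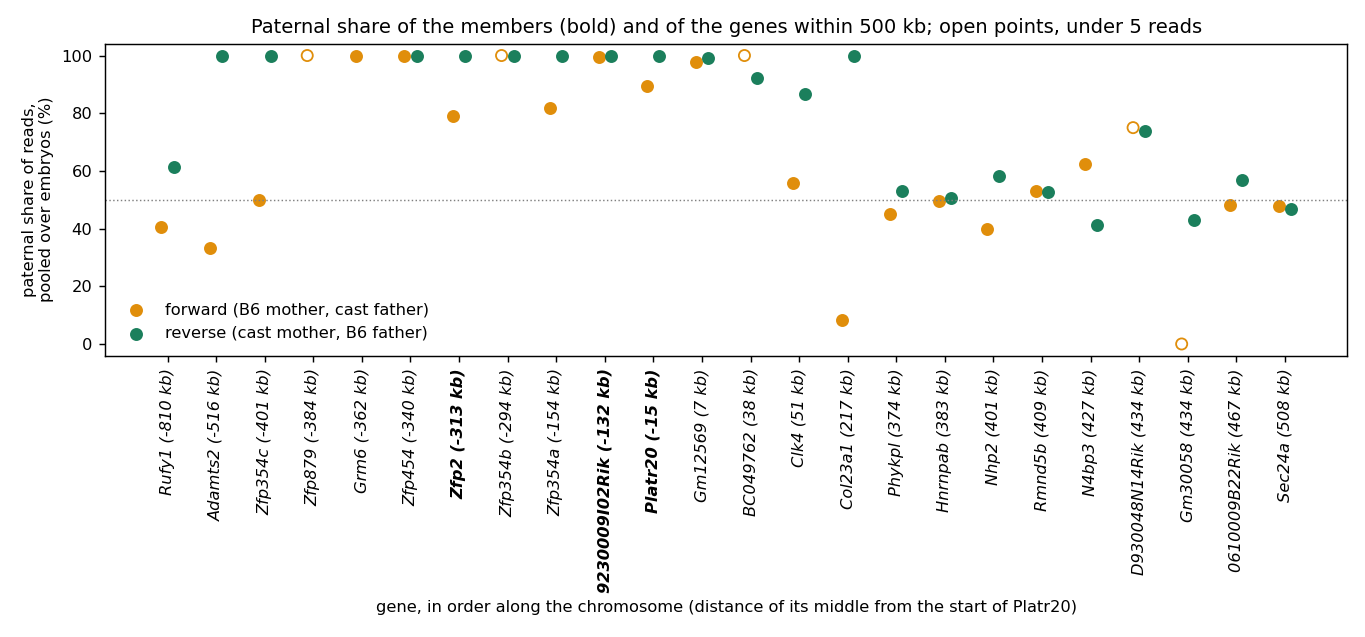
Paternal share (%) of the reads pooled over forward (orange) and reverse (green) embryos, for the members (bold) and their 21 neighbours in chromosomal order, with the distance of each gene's middle from the start of Platr20 in kb. Open points rest on fewer than 5 reads. From Zfp454 to Gm12569 all points lie at 79.2% or higher, Col23a1 changes from 8.33% to 100% between crosses, and Phykpl to Rmnd5b lie between 39.9% and 58.3%.

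The other pluripotency associated transcripts on file, which lie elsewhere in the genome, numbered 15, of which 11 were tested. Platr4 and Platr5 were called for parent, both towards the paternal allele, where 1.42% of all genes tested were called. The median parental difference was -0.02 over the 11 and -0.01 over all genes. Platr4 had 8 maternal and 180 paternal reads (log2 difference 4.32, SE 0.69, adjusted p = 5.76e-04 by edgeR, called in all 16 alternatives), and its share was 85.7% or higher in each embryo. Platr5 had 16 maternal and 144 paternal reads (3.27, SE 0.79, adjusted p = 0.0427 by edgeR), with all 16 maternal reads in forward embryo 1, and 4 of the embryos could each remove the call when left out (forward 2 and 3, reverse 1 and 7). For strain, 1 of the 11 was called, beside 15.4% of all genes tested. It was Platr26, which was higher on the B6 allele (log2 difference -2.61, SE 0.45, adjusted p = 2.32e-04 by edgeR).

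Genes with the most similar profiles were found by Pearson's r of log2(CPM + 1) over the 16 allele libraries, which share their embryos and depth. The libraries are maternal and paternal, so r is set largely by the paternal split that chose the members, and other paternally read genes rank high by construction. These values are a description of the profiles. For Platr20 they were Dubr (r = 0.962), Gm35599 (0.959) and Snrpn (0.952), and each of these had at most 8 maternal reads. Zfp2 was nearest to Tec (0.933), Snrpn (0.928) and 2400006E01Rik (0.924). Tec was not mainly paternal in both crosses. It had 4, 5 and 0 maternal beside 5, 1 and 2 paternal reads in forward embryos 1, 2 and 3, and only paternal (B6) reads in reverse embryos. 9230009I02Rik was nearest to Gm33006 (0.879), Gpr157 (0.876) and Gm30440 (0.869), genes with 22, 48 and 42 paternal reads in all.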

How the data were processed

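RNA-seq libraries were made from single blastocysts with a SMART-Seq2 compatible protocol. The authors aligned reads to mm10 with STAR, excluded reads mapping to multiple locations, kept reads covering SNPs between B6 and cast, and deposited them as counts per gene, embryo and strain without normalization. The methods and the submitters' processing notes name different versions of STAR.

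Parental origin followed from strain and cross. Symbols were located in GENCODE release M21, then in RefSeq, and 1114 of 22810 had no match. Counts were tested with edgeR 4.0.16 (R 4.3.3, limma 3.58.1) with TMM factors, the quasi-likelihood test at its defaults and Benjamini-Hochberg adjustment over all genes tested. The model held strain and parent for 16 allele libraries, or cross for 8 embryos. The tests covered autosomal genes that reached 10 reads in 1 or more allele libraries, and the threshold was an adjusted p of at most 0.1. Marker lists were summed as reads per 1000000 of an embryo (RPM), and of the cumulus cell list 0 of 4 genes were in the table used here. The scripts were tested on simulated data.

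The members, lists and tests were chosen with earlier results of these data known. Named genes are the members, the neighbours called for parent or strain or nearest to a member, the Platr genes called and Platr4, and the 3 genes most correlated with each member. Others were named after their values were seen.

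Alleles of 1 embryo form a true pair: their deviations correlated with r between 0.124 and 0.649 in the 8 embryos. A term for each embryo was therefore an alternative, beside DESeq2 1.42.0, RLE size factors, other filters, legacy = FALSE, 1 library size per embryo and leaving out each embryo. No 2 embryos had identical counts.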

Additional observations from a re-analysis of the deposited data

Results flagged for a closer look

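The total level of 9230009I02Rik in reverse embryo 3, 13.1 CPM, stood apart from the other reverse embryos, which lay between 0 and 1.81 CPM (gap over range 0.861, above Dixon's critical value of 0.71 for 5 samples). Levels of 3 genes in reverse embryos were examined in this way. Chance alone marks about 1 in 20 such groups if the values are normally distributed. That rate need not hold for low counts with embryos at 0. The strain coefficient of the model passed the test for 9230009I02Rik, at a log2 difference of 3.80 (cast minus B6, SE 0.89, adjusted p = 0.00563 by edgeR). Pooled paternal shares of this gene were 99.5% in forward and 100% in reverse embryos, the latter from 20 reads. The coefficient therefore does not show a parental split that differs between crosses. It was called in 15 of 16 alternatives, the exception being the fit that compares the alleles within an embryo, with 1 maternal read. For a gene read from the paternal allele, strain and cross cannot be told apart.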

How the results depend on the processing

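No strain or cross difference of the members changed sign under any alternative run. The strain coefficient of 9230009I02Rik was 1.30 with a replicate block for each embryo and was then not called, and leaving out each embryo gave 3.07 to 5.48. For Platr20 the strain difference passed the threshold at -2.28 with this pairing and at -1.56 with 1 library size per embryo (-1.58 to -1.06 when embryos were left out), and for Zfp2 it stayed uncalled (-1.75 to -1.19). The lower total level of 9230009I02Rik in reverse embryos passed the threshold with DESeq2 (-3.98), without a filter (-4.01), with legacy = FALSE (-4.02) and without reverse embryo 1 (-3.85) or 3 (-6.00), and ranged from -6.00 to -3.52 when single embryos were left out. The exact permutation tests of this gene alone, with a pseudocount of 1 (-4.36) or 0.5 (-4.92), gave an unadjusted p of 0.0357. The ranges were 0.54 to 1.27 for Platr20 and 0.32 to 1.21 for Zfp2. Embryos of the 2 crosses share only a number: the deviations of same-numbered embryos correlated at 0.271, 0.00859 and 0.243, and a block on that number changed no call (-3.79, adjusted p = 0.126 by edgeR, for 9230009I02Rik).

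Neighbours with a parental difference numbered 2, against 4 without a filter and 1 with at least 10 reads in at least 4 embryos, with the pairing by embryo or at an adjusted p of at most 0.05 (1 to 2 without single embryos). Neighbours with a strain difference numbered 2, against 3 without a filter and 1 with DESeq2, the stricter filter, legacy = FALSE or the stricter threshold (1 to 2 without single embryos). Other Platr genes with a parental difference numbered 2, against 3 without a filter (1 to 2 without single embryos), and those with a strain difference 2 with DESeq2, without a filter or with 1 library size per embryo, and 3 with the replicate block. The causes were not tested. Depth limits the shares of Zfp2, of 9230009I02Rik in reverse embryos and of the neighbours with few reads, since single reads move them.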
